A study of Mus musculus with 12 samples.

Results

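Killer-cell lectin-like receptors are surface proteins best known from natural killer (NK) cells, and T cells that have responded to antigen can carry them too. The 7 genes described here, Klrg1, Klrd1, Klrk1, Klrc1, Klrb1c, Klrb1f and Klre1, were taken by symbol from the 43626 genes of a count table of mouse splenic CD4+ T cells. The rule takes genes by symbol, and the members were chosen with earlier results of these data known. All 7 passed the filter on low counts and were among the 13238 genes tested.

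The cells came from naive CD45RBhi CD25- CD4+ T cells that were injected into adult male Rag2-/- mice, which lack T and B cells but keep NK and myeloid cells of their own. All donors carried 1 GFP reporter allele and 1 loxP-flanked (flox) allele of Eomes, the gene of a T-box transcription factor that NK cells and cytotoxic T cells use. Donors without cre are called Het here (Eomes flox/GFP), and donors that also carried Lck-cre, a recombinase driven by a T-lineage promoter, are called KO (Eomes flox/GFP, Lck-cre). The spleens of 6 recipients were taken 3 weeks later and their CD4+ T cells sorted by GFP, which gave 4 groups of 3 libraries, and the libraries of a genotype that share a number came from 1 recipient. The reporter allele is therefore common to all 4 groups, and the Het groups are not wild type. The questions named for the series were which genes mark Eomes-expressing CD4+ T cells (Het GFP-positive against Het GFP-negative) and which depend on Eomes (Het GFP-positive against KO GFP-positive).

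The family holds inhibitory and activating receptors, which set how readily an NK cell or T cell responds. CD94, made by Klrd1, pairs with NKG2A, made by Klrc1, to form an inhibitory receptor, or with NKG2C, made by Klrc2, to form an activating one, and both bind the non-classical MHC molecule Qa-1, made by H2-T23. NKG2D, made by Klrk1, binds stress-induced ligands and signals through the adaptor DAP10, made by Hcst. KLRG1 is an inhibitory receptor for cadherins and marks differentiated effector T cells. Klrb1c makes the activating NK cell antigen NK1.1, Klrb1f makes the related NKR-P1F, which binds the C-type lectin Clr-g made by Clec2i, and Klre1 makes a partner of the KLRI receptors.

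Depth was lower in GFP-positive libraries, with total counts of 4364155 to 8400168 in Het and 2116894 to 8608902 in KO, than in GFP-negative libraries, with 11492908 to 15026613 in Het and 12067137 to 18167236 in KO. Very abundant noncoding features took 58.3% of the counts of Het GFP-positive replicate 2 and 54.3% of KO GFP-positive replicate 2, against 16.3% to 30.9% elsewhere. Eomes stood at 9.19, 3.68 and 2.16 CPM (counts scaled to a library size of 1e6) in Het GFP-negative, at 114.8, 123.3 and 89.8 in Het GFP-positive, at 4.73, 1.95 and 2.18 in KO GFP-negative and at 46.7, 45.7 and 31.6 in KO GFP-positive libraries 1, 2 and 3. The GFP-positive groups did not overlap in Eomes, but the fit did not call the difference (log2 difference Het minus KO 1.41, SE 0.43, edgeR FDR 0.420). A count over the whole gene does not show whether the flox segment was removed. Y-linked genes summed to 0 to 32 CPM in the 6 Het libraries and to 41.6 to 221 CPM in the 6 KO libraries, so genotype and this difference cannot be told apart.

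The sorted cells carried CD4+ T cell genes at high levels. The 9 genes of the CD4+ T cell marker list, all of them detected, summed in GFP-negative libraries to 2396 to 3089 CPM (Het) and 2605 to 2851 CPM (KO), and in GFP-positive libraries to 1693 to 2050 CPM (Het) and 1642 to 2204 CPM (KO). The CD8 genes Cd8a and Cd8b1 summed to no more than 4.57 CPM in any library. Ncr1, which makes the NK cell receptor NKp46, had 0 to 19 counts per library, and Zbtb16, the transcription factor of innate-like T cells, had 0 to 10.

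One library stood apart in the receptor genes. KO GFP-positive replicate 1 had the highest level of all 7 members in its group, and for 6 of the 7 it was within 0.57 on the log2 scale of its own GFP-negative partner. The other 2 KO GFP-positive libraries were both below 13 CPM for those 6 genes, while replicate 1 reached 93.4 CPM for Klrg1, 74.8 for Klrd1, 65.0 for Klrk1 and 67.2 for Klrc1. Eomes was at 46.7 CPM in that library, beside 45.7 and 31.6 in the others. The NK marker list of 14 genes summed to 117 CPM there and to 146 and 132 CPM in replicates 2 and 3. The genes of that list differed in direction. In replicates 1, 2 and 3 Irf8 was at 53.8, 70.0 and 86.0 CPM and Ncr1 had 2, 5 and 3 counts. Itga2 was at 27.6, 11.4 and 23.2 CPM and Klra3 at 11.05, 3.57 and 0.71 CPM. The myeloid list of 10 genes summed to 606, 1296 and 298 CPM, and 94000, 49000 and 18000 cells had been sorted. The part of these differences in the receptor levels was not tested. Most differences of the 7 members that use this library are given with and without it. Those of other genes and gene lists, and the correlations, are given with it only. Without it the genes called between the KO sorts went from 17 (0.128%) to 1762 (13.3%) of 13238 by edgeR without a block.

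**Figure D1:**
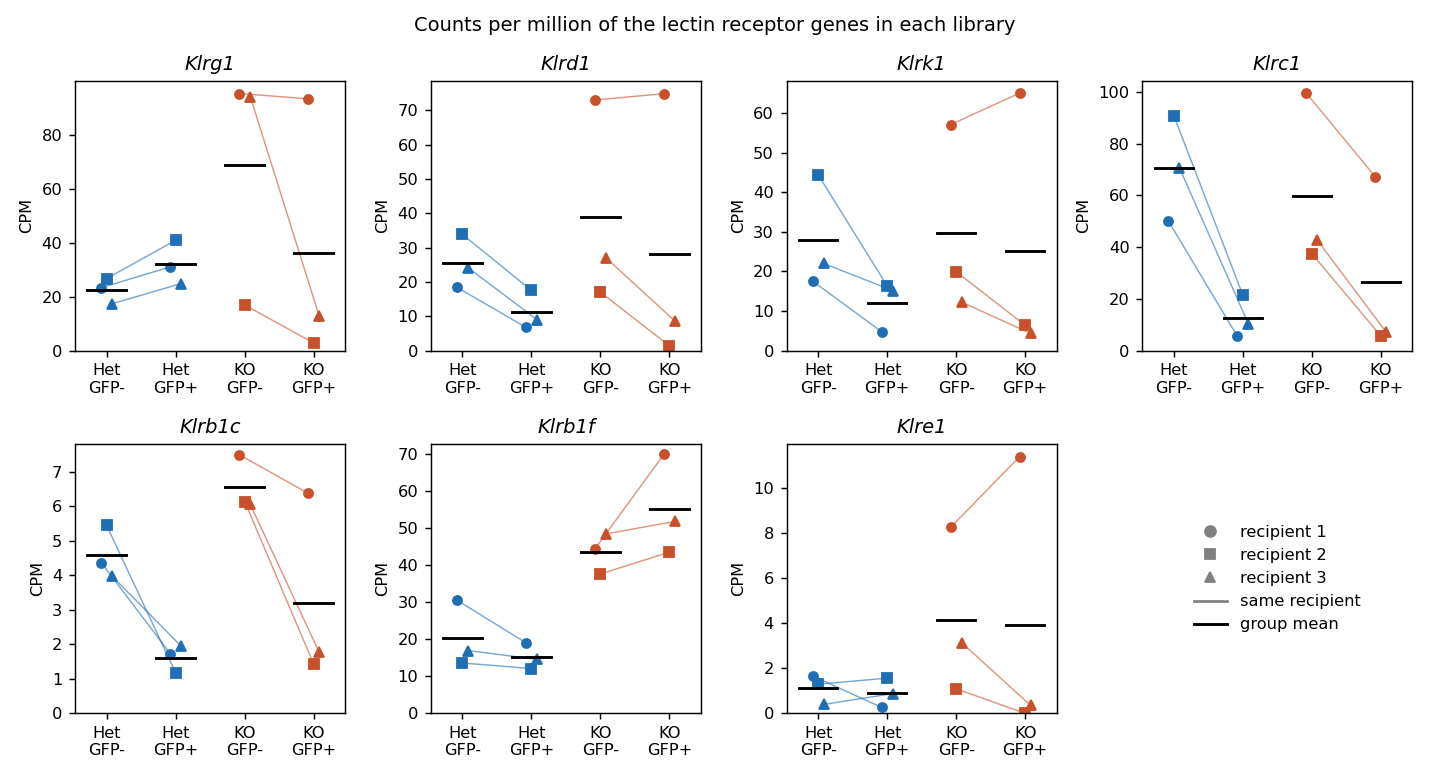
CPM of the 7 receptor genes (1 panel each, linear axis from 0) in every library, with circles, squares and triangles for recipients 1, 2 and 3, blue for Het and orange-red for KO, lines joining the 2 libraries of a recipient, and black bars for group means. Klrc1 was lower in the GFP-positive library of all 6 recipients, KO GFP-positive replicate 1 (circle) lay far above replicates 2 and 3 in 6 panels, and Klrb1f was higher in every KO library than in every Het library.

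Both genes of the inhibitory receptor of NKG2A and CD94 were lower in GFP-positive than in GFP-negative Het cells, and the comparison within each mouse called both. Klrc1 (ENSMUSG00000030167.11, GRCm38 chromosome 6, 129666015 to 129678973) was at 50.1, 90.8 and 70.7 CPM in the Het GFP-negative libraries of recipients 1, 2 and 3 and at 5.60, 21.5 and 10.4 CPM in their GFP-positive libraries. The groups did not overlap, and the mean was 70.5 ± 20.3 CPM in GFP-negative against 12.5 ± 8.13 in GFP-positive cells (SD, n = 3). The log2 difference was -2.60 (SE 0.80) and was not called over all genes by edgeR's quasi-likelihood test (FDR 0.0984), which here fits 1 mean per group over all 12 libraries and calls at an FDR of 0.05. With a block for the recipient, that is, a fit within each mouse, Klrc1 fell by 2.66 on the log2 scale (SE 0.35, edgeR FDR 0.000649). KO GFP-positive replicate 1 enters this comparison only through the shared spread and the scaling of the libraries. Without it Klrc1 was also called in the fit without the block (edgeR FDR 0.0117). The authors' deposited table lists Klrc1 with a log2 fold change of -2.20 and an adjusted p-value of 3.42e-07.

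Klrd1 (ENSMUSG00000030165.12, chromosome 6, 129591782 to 129598775) was at 18.5, 33.8 and 24.2 CPM in the Het GFP-negative and at 6.80, 17.6 and 9.05 CPM in the Het GFP-positive libraries of recipients 1 to 3. All 3 GFP-positive values were below all 3 GFP-negative values. The log2 difference was -1.28 (SE 0.88, edgeR FDR 0.392), and with the recipient block Klrd1 fell (log2 difference -1.28, SE 0.35, edgeR FDR 0.0247). It is listed in the authors' deposited table at -1.11 with an adjusted p-value of 0.0176.

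In the KO recipients the same 2 genes were split by recipient. Klrc1 was at 99.5, 37.5 and 42.7 CPM in KO GFP-negative and at 67.2, 5.71 and 7.07 CPM in KO GFP-positive libraries 1 to 3. Klrd1 was at 73.0, 17.0 and 27.1 CPM in KO GFP-negative and at 74.8, 1.43 and 8.60 CPM in KO GFP-positive libraries. Recipients 2 and 3 had far lower levels in the GFP-positive cells, and recipient 1 did not. The value of Klrd1 in KO GFP-positive replicate 2 rests on 2 counts and that of Klrc1 on 8. Over all 3 recipients the log2 difference was -1.05 for Klrc1 (SE 0.74, edgeR FDR 0.439) and -0.34 for Klrd1 (SE 0.83, edgeR FDR 0.838). The recipient block called Klrc1 (log2 difference -1.67, SE 0.36, edgeR FDR 0.0135) and not Klrd1 (edgeR FDR 0.0746). Without KO GFP-positive replicate 1, and without the block, both were called, Klrc1 at -3.14 (edgeR FDR 0.0207) and Klrd1 at -2.59 (edgeR FDR 0.0397).

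The ratio of the 2 partners also differed between the Het sorts, while the KO sorts overlapped in it. Klrc1 had 2.71, 2.68 and 2.92 counts for each Klrd1 count in Het GFP-negative and 0.824, 1.22 and 1.15 in Het GFP-positive libraries. The exact binomial 95% intervals, which cover counting error only, ran from 2.34 to 3.27 over the GFP-negative and from 0.534 to 1.86 over the GFP-positive libraries and did not meet. In KO GFP-negative libraries the ratio was 1.36, 2.20 and 1.58, below every Het GFP-negative value. It was 0.898 and 0.822 in KO GFP-positive replicates 1 and 3, and in replicate 2 it was 4 from 8 against 2 counts, with an interval of 0.798 to 38.7 that allows any of these values. KO GFP-positive replicate 1, which was near its GFP-negative partner in the level of Klrd1, was thus near the Het GFP-positive libraries in this ratio. The ratio was described and not tested between groups.

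**Figure D2:**
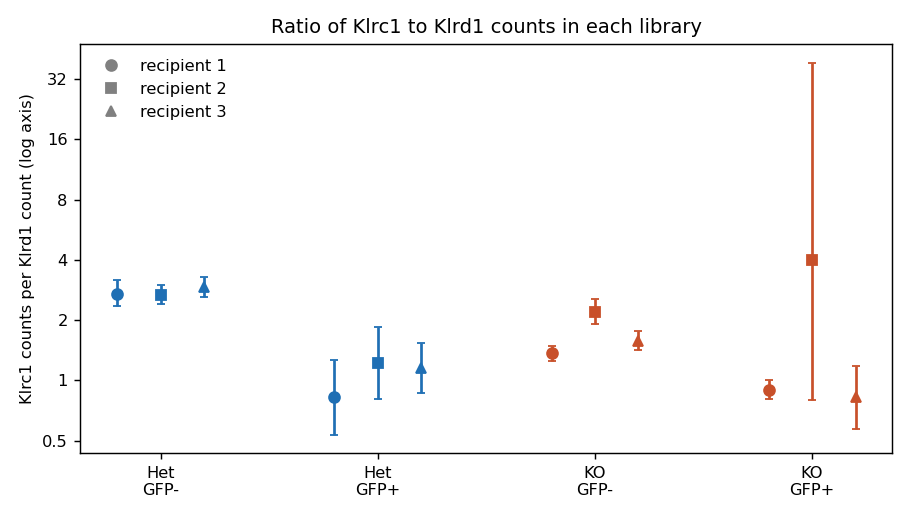
Counts of Klrc1 for each count of Klrd1 in every library (log axis), with exact binomial 95% intervals for counting error. The 3 Het GFP-negative libraries sit between 2.68 and 2.92, the 3 Het GFP-positive libraries between 0.824 and 1.22, and KO GFP-positive replicate 2 has an interval from 0.798 to 38.7.

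The 250 bases before the RefSeq transcript start of Klrc1 (GRCm38.p6, chr6:129678974-129679223, minus strand) are shown because this gene had the lowest fitted log2 difference of the 7 in the Het cells. Capitals mark matches to the RUNX core TGTGGT or its reverse complement ACCACA, and no window shown here held the T-box core GTGTGA or TCACAC, the letters that EOMES and T-bet can bind.
Klrc1: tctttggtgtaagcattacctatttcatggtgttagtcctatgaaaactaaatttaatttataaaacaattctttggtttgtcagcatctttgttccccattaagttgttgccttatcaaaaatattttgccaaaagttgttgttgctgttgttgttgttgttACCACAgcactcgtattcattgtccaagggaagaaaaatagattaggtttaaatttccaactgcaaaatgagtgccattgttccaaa
Of 32851 such windows, 12.3% held the T-box core and 14.0% the RUNX core on either strand. A match is a match of letters only.

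Klrk1, the gene of NKG2D, followed the same order. Klrk1 (ENSMUSG00000030149.11, chromosome 6, 129610323 to 129623864) was at 17.6, 44.4 and 22.02 CPM in Het GFP-negative and at 4.80, 16.4 and 15.2 CPM in Het GFP-positive libraries. The groups did not overlap, although the highest GFP-positive value was close to the lowest GFP-negative one. The log2 difference of -1.24 (SE 0.89, edgeR FDR 0.411) was called only with the recipient block, where Klrk1 fell by 1.21 (SE 0.33, edgeR FDR 0.0245). In the KO recipients Klrk1 was at 57.1, 19.9 and 12.3 CPM in GFP-negative and at 65.0, 6.42 and 4.36 CPM in GFP-positive cells. Recipient 1 was again the only one without a lower GFP-positive value, and no fit of all 3 recipients called the gene (log2 difference -0.13, SE 0.85, edgeR FDR 0.948; with the block -0.72, FDR 0.164). Without KO GFP-positive replicate 1 the difference was -2.56 (edgeR FDR 0.0570).

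The window before Klrk1 (chr6:129623865-129624114, minus strand) is shown as the second of the genes that were lower in Het GFP-positive cells, with the RUNX core match in capitals.
Klrk1: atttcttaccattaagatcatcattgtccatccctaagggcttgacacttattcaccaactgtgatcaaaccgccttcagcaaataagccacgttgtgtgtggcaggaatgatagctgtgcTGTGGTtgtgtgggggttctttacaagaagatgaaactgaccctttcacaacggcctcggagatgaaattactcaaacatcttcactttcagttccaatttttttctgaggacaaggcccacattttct

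Klrb1c, the gene of NK1.1, was low in all libraries and lower in GFP-positive cells. Klrb1c (ENSMUSG00000030325.12, chromosome 6, 128778485 to 128789215) was at 4.37, 5.45 and 3.97 CPM in Het GFP-negative and at 1.73, 1.17 and 1.95 CPM in Het GFP-positive libraries. No value of one group reached the other. The log2 difference was -1.44 (SE 0.48, edgeR FDR 0.116), Klrb1c fell with the recipient block (-1.37, SE 0.40, edgeR FDR 0.0319), and it was called without KO GFP-positive replicate 1 (edgeR FDR 0.0241). The authors' deposited table lists it at -1.21 with an adjusted p-value of 0.0246. In the KO libraries it was at 7.50, 6.14 and 6.06 CPM in GFP-negative and at 6.38, 1.43 and 1.77 CPM in GFP-positive cells. The 2 groups met only through KO GFP-positive replicate 1, without which the log2 difference was -1.95 (edgeR FDR 0.0207) against -0.89 with it (SE 0.45, edgeR FDR 0.316).

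Its RefSeq window (chr6:128788642-128788891, minus strand), which lies inside the interval of the deposited gene model, also held 1 RUNX core match.
Klrb1c: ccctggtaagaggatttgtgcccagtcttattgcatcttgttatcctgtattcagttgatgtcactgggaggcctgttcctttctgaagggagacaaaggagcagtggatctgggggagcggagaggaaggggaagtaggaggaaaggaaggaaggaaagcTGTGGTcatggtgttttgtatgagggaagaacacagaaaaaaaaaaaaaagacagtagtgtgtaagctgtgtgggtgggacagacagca

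Klrg1 went the other way in the Het cells. Klrg1 (ENSMUSG00000030114.8, chromosome 6, 122270596 to 122282882) was at 23.4, 26.8 and 17.4 CPM in the Het GFP-negative and at 31.1, 41.0 and 24.9 CPM in the Het GFP-positive libraries. It was higher in the GFP-positive cells of all 3 recipients, by 0.41, 0.61 and 0.51 on the log2 scale, while the groups overlapped. The log2 difference of 0.50 (SE 0.81, edgeR FDR 0.736) was not called, and not with the block either (0.51, SE 0.39, edgeR FDR 0.365). It passed only with the block and without both libraries of KO recipient 1 (0.53, SE 0.13, edgeR FDR 0.0116), a fit that called 16.4% of all genes higher.

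In the KO recipients Klrg1 was at 95.4, 17.0 and 94.3 CPM in GFP-negative and at 93.4, 2.86 and 12.8 CPM in GFP-positive cells. The GFP-positive value was thus lower in recipients 2 and 3, by 2.50 and 2.86 on the log2 scale, and equal in recipient 1 to within 0.03. The log2 difference was -0.82 (SE 0.80, edgeR FDR 0.573). Klrg1 fell with the recipient block (-1.51, SE 0.46, edgeR FDR 0.0431) and without KO GFP-positive replicate 1 (-2.83, edgeR FDR 0.0309). The test of the difference between genotypes did not pass in the fit of all libraries (interaction log2 1.32, SE 1.14, edgeR FDR 1.00) or with the block (2.02, SE 0.60, edgeR FDR 0.485). It passed with the block when both libraries of KO recipient 1 were left out (3.35, SE 0.25, edgeR FDR 0.00016), which leaves 2 KO recipients and called 0.0982% of all genes in that direction.

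Klre1, on chromosome 6 at 129577893 to 129585824 (ENSMUSG00000050241.6), was, with Klrb1c, among the 2 lowest members per kilobase of exon in all 12 libraries. It was at 1.66, 1.29 and 0.40 CPM in Het GFP-negative, at 0.27, 1.56 and 0.88 in Het GFP-positive, at 8.23, 1.09 and 3.13 in KO GFP-negative and at 11.4, 0 and 0.35 in KO GFP-positive libraries. All 4 groups overlapped. The KO GFP-positive libraries held 107, 0 and 3 counts, and a count of 0 at the depth of replicate 2 allows up to 3 counts, or 2.14 CPM. Klre1 was not called in any of the 5 comparisons by edgeR. As alternatives it passed between the KO sorts only with the block and without both libraries of KO recipient 1 (-3.20, SE 1.02, edgeR FDR 0.0359), and with limma-voom quality weights (-2.91, FDR 0.0384). These 2 fits called 14.9% and 22.3% of all genes lower.

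Klrb1f was higher in every KO library than in every Het library. Klrb1f (ENSMUSG00000030154.8, chromosome 6, 129045901 to 129057471) was at 30.6, 13.6 and 17.0 CPM in Het GFP-negative and at 19.1, 12.1 and 14.6 CPM in Het GFP-positive libraries. In the KO recipients it was at 44.4, 37.6 and 48.5 CPM in GFP-negative and at 69.9, 43.6 and 51.8 CPM in GFP-positive libraries. The genotypes did not overlap in either sort. KO GFP-positive replicate 1 was again the highest of its group, but replicates 2 and 3 stayed high as well, with a mean of 47.7 CPM.

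In GFP-positive cells Klrb1f was lower in Het than in KO, with a log2 difference of -1.85 (SE 0.30) and an edgeR FDR of 0.0466, just under the threshold. It was the 1 member called of 7, where 0.0529% of all tested genes were called lower and 0.106% in either direction. Groups that did not overlap, with Het lower, were seen for 3.26% of all genes. The size held between -2.04 and -1.67 under 20 alternatives, while the call held in 8. It was kept by DESeq2 (FDR 9.2e-06, where 0.339% of all genes were called lower) and limma-voom (FDR 0.0324, where 0.0831% were). It was lost when only the 2 groups were fitted (edgeR FDR 0.0867), without any 1 of the 6 GFP-positive libraries (edgeR FDR 0.0851 to 0.185), and without Het GFP-negative replicate 3 or KO GFP-negative replicates 1 or 3 (edgeR FDR 0.0568, 0.0707 and 0.0612). The authors' deposited table gives a log2 fold change of 1.57 (adjusted p-value 5.39e-06), and the signs of that table run as KO minus Het.

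In GFP-negative cells the log2 difference of Klrb1f was -1.10 (SE 0.29, edgeR FDR 0.594), again with all Het values below all KO values. No gene was called in that comparison (0 of 13238, 0.0%), against 45 (0.34%) with DESeq2, and 695 genes had an unadjusted p under 0.05. Klrb1f was called there by limma-voom alone (FDR 0.0251, where 0.249% of all genes were called lower). Within recipients it was lower in GFP-positive cells of all 3 Het mice, by 0.68, 0.17 and 0.21 on the log2 scale, and higher in those of all 3 KO mice, by 0.65, 0.21 and 0.10. On raw library sizes KO recipients 2 and 3 went the other way. The interaction was not called (-0.75, SE 0.41, edgeR FDR 1.00; with the block -0.71, SE 0.24, FDR 0.690).

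The window before Klrb1f (chr6:129045651-129045900, plus strand) is also printed, and a link between motifs and receptor levels was not tested. The Klrb1f window held neither motif and so has no capitals.
Klrb1f: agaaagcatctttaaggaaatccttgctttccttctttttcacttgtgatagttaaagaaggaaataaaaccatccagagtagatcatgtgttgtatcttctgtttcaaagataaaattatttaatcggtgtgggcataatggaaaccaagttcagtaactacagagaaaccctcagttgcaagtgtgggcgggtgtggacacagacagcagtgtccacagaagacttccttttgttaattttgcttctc
The 5 members in the RefSeq table were Klrk1, Klrc1, Klrb1c, Klrb1f and Klre1, with 2 windows for Klre1. One of the Klre1 windows held the RUNX core and the other the T-box core.

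**Figure D3:**
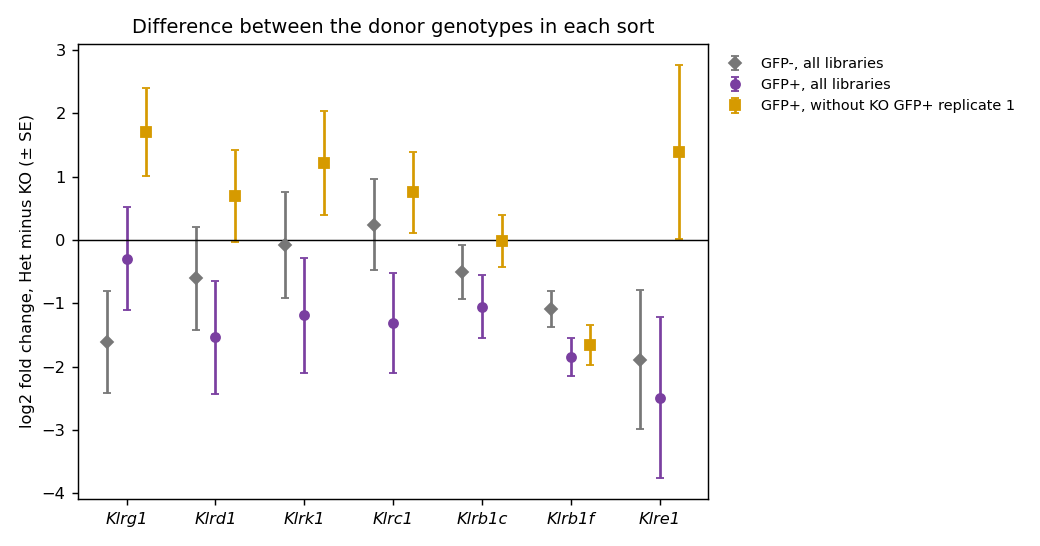
Log2 fold change of each receptor gene, Het minus KO, with bars of 1 SE, in GFP-negative cells (grey diamonds), in GFP-positive cells with all libraries (purple circles) and in GFP-positive cells without KO GFP-positive replicate 1 (gold squares). Klrb1f stayed between -1.85 and -1.10, while Klrg1, Klrd1, Klrk1, Klrc1 and Klre1 in GFP-positive cells crossed 0 when that 1 library was left out.

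The other 6 members showed no called difference between Het and KO GFP-positive cells, and the sign of 5 of them was set by 1 library. With all libraries the log2 differences Het minus KO were -0.29 for Klrg1 (SE 0.81), -1.54 for Klrd1 (SE 0.89), -1.19 for Klrk1 (SE 0.90), -1.31 for Klrc1 (SE 0.80), -1.06 for Klrb1c (SE 0.50) and -2.49 for Klre1 (SE 1.27), with edgeR FDR values of 0.814 to 1.00. Without KO GFP-positive replicate 1 they were 1.70, 0.69, 1.21, 0.75, -0.01 and 1.39 in the same order. The Het GFP-positive libraries, at 24.9 to 41.0 CPM for Klrg1, lay above KO GFP-positive replicates 2 and 3 and below replicate 1. No direction held with and without that library for Klrg1, Klrd1, Klrk1, Klrc1 or Klre1.

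In GFP-negative cells Klrg1 was at 17.4 to 26.8 CPM in Het and at 95.4, 17.0 and 94.3 CPM in KO libraries. The high values of KO recipients 1 and 3 were not shared by recipient 2, and the log2 difference of -1.61 (SE 0.81, edgeR FDR 0.953) was not called. Klrb1c was lower in all 3 Het than in all 3 KO GFP-negative libraries (log2 difference -0.51, SE 0.43, edgeR FDR 1.00). With Klrb1f it made 2 of 7 members whose groups did not overlap with Het lower, against 5.89% of all tested genes.

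Counted together, 0 of the 7 members were called between Het GFP-positive and GFP-negative cells in the fit without the block, where 3.45% of all genes were called (1.82% higher, 1.63% lower), and 2 had an unadjusted p under 0.05, as did 23.2% of all genes. DESeq2 also called 0 of the 7, where 9.22% of all genes were called (3.79% lower), and limma-voom called 2, where 7.43% of all genes were called lower. Klrc1, Klrd1, Klrk1 and Klrb1c had groups that did not overlap, with GFP-positive lower, which was the case for 14.6% of all tested genes. With the recipient block those 4 were called lower, where 9.41% of all genes were called lower and 22.2% in either direction. Without KO GFP-positive replicate 1 the fit without the block called 2 members lower, Klrc1 and Klrb1c, where 3.32% of all genes were. The median log2 difference of the 7 was -1.24, beside -0.02 over all tested genes.

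Between the KO sorts 0 members were called without the block, where 0.128% of all genes were, and 0 had an unadjusted p under 0.05. DESeq2 also called 0 of the 7, where 3.05% of all genes were called (1.08% lower), and limma-voom called 5, where 22.3% of all genes were called lower. No member had groups that did not overlap, against 20.3% of all genes. The block called 2 members lower, where 8.14% of all genes were called lower. Without KO GFP-positive replicate 1, 4 members were called lower (Klrg1, Klrd1, Klrc1 and Klrb1c), where 7.46% of all genes were, and the median over the 7 moved from -0.34 to -2.59. No member was called in the interaction, where 0.00755% of all genes were, and none had an unadjusted p under 0.05. With the block 0 were called, where 0.0755% of all genes were, and 2 had an unadjusted p under 0.05, Klrg1 and Klrb1f, as did 4.77% of all genes. With DESeq2 no member was called in the interaction, where 11 genes (0.0831%) were. The 2 comparisons within Het and between GFP-positive cells share the Het GFP-positive libraries, and those of the KO sorts share the KO GFP-positive libraries, so the values above are not independent of each other.

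Within recipients Klrc1 and Klrb1c were lower in the GFP-positive cells of 6 of 6 mice. For Klrc1 the log2 differences were -3.12, -2.07 and -2.74 in Het and -0.57, -2.68 and -2.56 in KO recipients 1 to 3. Of all tested genes, 19.9% were lower in all 6, so this pattern was common. Klrd1 and Klrk1 were lower in 5 of 6, with KO recipient 1 at 0.04 and 0.19. Klrg1 and Klrb1f went opposite ways in the 2 genotypes, a pattern shown by 1.21% of all tested genes. Klrg1 in KO recipient 1 was at only -0.03, and raw library sizes reversed the direction of both genes in some recipients. In bulk RNA a lower level in fewer cells and a lower level in each cell cannot be told apart.

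**Figure D4:**
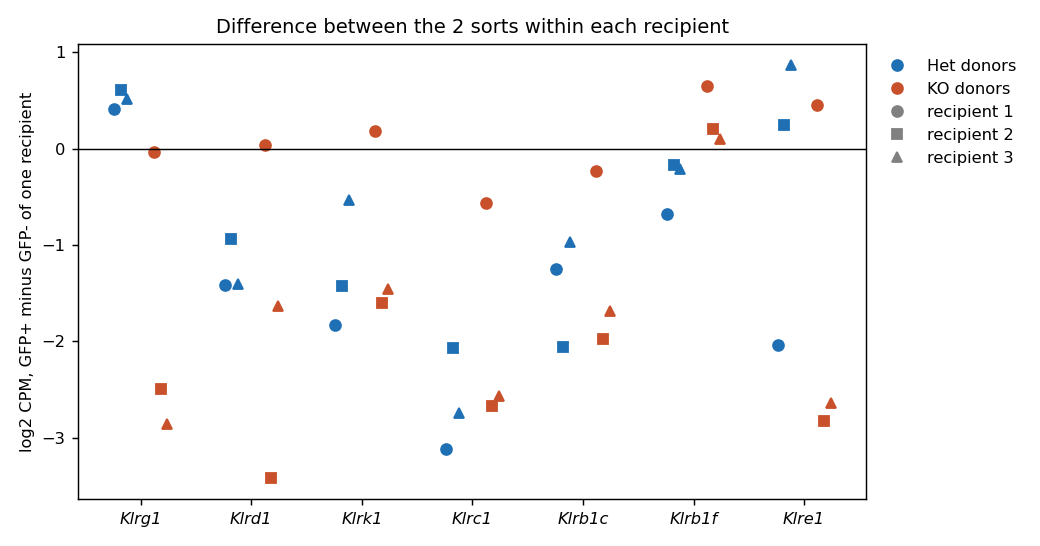
Log2 CPM of the GFP-positive minus the GFP-negative library of each recipient (prior count 2) for the 7 receptor genes, blue for Het and orange-red for KO, with circles, squares and triangles for recipients 1, 2 and 3. Klrc1 and Klrb1c lie below 0 in all 6 recipients, and KO recipient 1 lies nearest to 0 for Klrc1. Klrg1 and Klrb1f lie on opposite sides of 0 in the 2 genotypes, with Klrg1 in KO recipient 1 at only -0.03.

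Levels per kilobase of exon put different receptors first in the different groups. In all 3 Het GFP-negative libraries Klrc1 was the highest, with a mean of 35.6 CPM per kilobase, ahead of Klrd1 at 19.9, Klrg1 at 15.9 and Klrb1f at 11.9, an order that changed between libraries below the first place. In all 3 Het GFP-positive libraries Klrg1 was the highest, at 22.9 CPM per kilobase, with Klrb1f at 8.93, Klrd1 at 8.70 and Klrc1 at 6.30, which changed order among themselves. Klrg1 led KO GFP-negative cells on average, at 48.7 CPM per kilobase, but Klrb1f led in recipient 2. In KO GFP-positive cells Klrb1f was the highest on average, at 32.3 CPM per kilobase, and in replicates 2 and 3, at 25.5 and 30.4, while Klrg1 was the highest in replicate 1, at 66.1.

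Over the 12 libraries the members varied together to different degrees, least so Klrb1f. Pearson correlations of log2 CPM between the other 6 ran from 0.549 for Klrg1 with Klrb1c to 0.899 for Klrd1 with Klre1. They were 0.886 for Klrk1 with Klrc1, 0.885 for Klrg1 with Klre1, 0.574 for Klrg1 with Klrc1 and 0.878 for Klrd1 with Klrc1, and for Klrb1f with the other members they were 0.029 to 0.392. These are descriptions over libraries that share groups, recipients and KO GFP-positive replicate 1. By the same measure, among 10435 genes, the nearest to Klrc1 were the gene without a symbol ENSMUSG00000029142.10 (r 0.981), Zfp273 (0.972) and Srsf5 (0.971). The nearest to Klrd1 were P2ry10b (0.964), Hmgcs1 (0.963) and Idi1 (0.959), and to Klrg1 9130023H24Rik (0.944), Cmklr1 (0.941) and Cyb561d2 (0.924). The nearest to Klrk1 were Gpcpd1 (0.919), Sec22b (0.892) and Spryd4 (0.889), and to Klrb1c Lamtor3 (0.985), Cd52 (0.983) and Angel2 (0.967). The nearest to Klrb1f were Haspin (0.916), Crybg2 (0.911) and Cd160 (0.905), and to Klre1 Arl4d (0.906), Klrd1 (0.899) and Syngr3 (0.894).

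Of the 7 members, 6 lie in the NK gene complex, a cluster of lectin receptor genes, within 900489 bases of chromosome 6 from Klrb1c to Klrc1, and Klrg1 lies 6495603 bases before it. The interval held 40 genes, of which 20 were tested, and both counts include the 6 members. In the Het sorts 0 of the 20 were called higher and 1 lower without the block, and 4 higher and 9 lower with it. Over all genes these shares were 1.82% higher and 1.63% lower without the block, and 12.8% higher and 9.41% lower with it. With the block the genes called higher were BC035044, Clec12a, Clec7a and Olr1, the last 3 being lectin-like receptor genes that myeloid cells express. Those called lower were the members Klrc1, Klrd1, Klrk1 and Klrb1c, already described above, and Klrc2, Klrb1b, Clec2i, Clec2d and Cd69. No other annotated gene overlapped the interval of a member.

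Of the 23 other genes of the family, all had a count in some library and 6 were tested. Klrb1b, which makes the inhibitory NKR-P1B, was the 1 called in the Het sorts without the block, where 3.45% of all genes were called. It was at 5.28, 4.02 and 5.68 CPM in GFP-negative and at 0.40, 0.39 and 1.46 CPM in GFP-positive libraries and fell by 2.53 on the log2 scale (SE 0.61, edgeR FDR 0.0425). Klrc2, the activating partner of CD94, was at 25.6, 47.3 and 31.7 CPM in Het GFP-negative and at 4.40, 12.5 and 5.74 CPM in Het GFP-positive libraries. It moved with Klrc1 and was called lower with the block (log2 difference -2.32, edgeR FDR 0.00053), not without it (FDR 0.0623). Klrc1, Klrc2 and Klrc3 are near copies of each other, as are the Klrb1 genes, and the setting for reads that map to several places is not given in the sources used here, so reads may be split among them. Klra2, an NK cell and myeloid receptor gene, rose with the block in both genotypes. The medians of the 6 were -1.46 in the Het and -0.44 in the KO sorts, beside -0.02 over all genes in each.

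Of 20 signalling partners of these receptors, 19 were tested, and in the Het sorts 2 rose and none fell without the block. Of all genes, 1.82% were called higher and 1.63% lower in that fit. The 2 that rose were Fyn, a Src family kinase (log2 difference 0.77, SE 0.18, edgeR FDR 0.0386), and Ptpn11, which makes the phosphatase SHP-2 (0.73, SE 0.16, edgeR FDR 0.0320). With the block 6 rose and 3 fell in Het recipients, where 12.8% of all genes were called higher and 9.41% lower. In KO recipients 4 rose and 2 fell with the block, where 9.6% of all genes were called higher and 8.14% lower. Hcst, the DAP10 adaptor of NKG2D, fell with Klrk1 under the block, from 38.1, 63.5 and 53.7 to 27.1, 23.03 and 26.6 CPM in Het mice (log2 difference -0.96, edgeR FDR 0.0169). In KO mice it went from 76.8, 44.8 and 60.5 to 54.7, 17.1 and 17.4 CPM, with recipient 1 again the highest GFP-positive library (block log2 difference -1.18, edgeR FDR 0.0131). Tyrobp, Fcer1g and Syk, which myeloid cells also express, rose with the block in both genotypes. The median of the 19 was 0.34 in the Het sorts.

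The myeloid list of 10 genes, all detected, moved with the sort as well. In Het recipients it summed to 191 to 1573 CPM in the GFP-negative and 498 to 3668 CPM in the GFP-positive libraries, and in KO recipients to 41.7 to 623 CPM and 298 to 1296 CPM. Of the 14 genes of the NK list 7 were tested, with a median log2 difference of 1.24 in the Het sorts, and Itga2 and Klrb1b fell. With the block Fcer1g, Fcgr3, Irf8 and Tyrobp, which myeloid cells also express, rose, and Itga2 and Klrb1b fell, in both genotypes. The list summed to 98.7 to 143 CPM in Het GFP-negative and to 131 to 210 in Het GFP-positive libraries. In KO it summed to 99.5 to 111 CPM in GFP-negative and 117 to 146 in GFP-positive libraries. Irf8 alone went from a mean of 28.7 to 73.0 CPM in the Het sorts. The Het sum thus rose while Klrc1, Klrd1, Klrk1 and Klrb1c were lower, but Itga2 and Klrb1b of the list fell as those receptors did. The CD4+ T cell sum was lower in GFP-positive cells, as these 4 receptors were. The part of these shifts in the receptor values was not tested.

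Ligands of the receptors are also made by T cells. Of 22 listed, 8 were tested, and none was called without the block, where 3.45% of all genes were in the Het sorts. The median log2 difference in the Het sorts was -0.26, beside -0.02 over all genes. With the block B2m, the light chain of MHC class I, and Clec2d, the ligand of NKR-P1B, fell in both genotypes. Clec2i, the ligand gene of NKR-P1F, fell in Het alone (log2 difference -0.53, edgeR FDR 0.0182), with 0.13 in KO (edgeR FDR 0.507). The difference of Clec2i between the genotypes was not called (with the block, edgeR FDR 0.456). Of all genes, the block called 9.41% lower in Het and 8.14% lower in KO recipients. H2-T23, the Qa-1 gene, was at 193 to 236 CPM in Het GFP-negative and 216 to 254 in Het GFP-positive libraries, which overlapped.

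Among 20 other receptors of the NK and cytotoxic type, 19 were tested, and in the Het sorts 2 rose and 4 fell, where 1.82% of all genes were called higher and 1.63% lower. With the block the calls were 5 higher and 8 lower, where 12.8% of all genes were called higher and 9.41% lower. The block added Tigit, Fcgr3, Il12rb1, Cd69, Il12rb2, Il18rap and Itga1. In the KO sorts 0 were called without the block, where 0.128% of all genes were. With the block Crtam and Fcgr3 rose and Cd96, Il18r1, Itga1 and Itga2 fell in KO, where 9.6% of all genes were called higher and 8.14% lower. Crtam, a receptor of activated cytotoxic cells, rose by 2.71 on the log2 scale (SE 0.43, edgeR FDR 0.00797), and Cd244a, the 2B4 receptor, by 1.58 (SE 0.36, edgeR FDR 0.0341). Cd96, Il18r1, Itga2 and Itgae fell (log2 differences -1.56, -1.40, -1.59 and -2.49, edgeR FDR 0.0114, 0.00300, 0.0208 and 0.0179). The receptor genes of GFP-positive cells thus did not move in 1 direction. Il12rb2, a subunit of the interleukin-12 receptor, was lower in Het GFP-positive than in KO GFP-positive cells (log2 difference -1.83, SE 0.25, edgeR FDR 0.0161), as Klrb1f was.

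Of 15 transcription factors of NK and effector T cells, 14 were tested. In the Het sorts Eomes, Tox and Ikzf2 rose, by 4.46, 4.51 and 2.65 on the log2 scale. Id2 and Zfp683 fell, by 1.77 and 2.85, and the edgeR FDR values of these genes were 0.00116 to 0.0142. Of all genes, 1.82% were called higher and 1.63% lower there. The cells were sorted by the reporter in Eomes, so the rise of Eomes was set by the sort. Zfp683, the gene of HOBIT, was lower in Het GFP-positive than in KO GFP-positive cells (1.07 to 2.27 against 50.6 to 72.1 CPM, log2 difference -5.25, SE 0.34, edgeR FDR 3.02e-05). Without the block it was the 1 gene of the list that this comparison and the interaction called, and Eomes was the 1 called in the KO sorts. Over all genes the shares called there were 0.106%, 0.00755% and 0.128%, in that order. With the block 7 rose and 4 fell in the Het sorts, where 12.8% of all genes were called higher and 9.41% lower. In the KO sorts the block called Eomes, Tox, Ikzf3 and Zfp683 higher and Id2, Gata3 and Tcf7 lower. Of all genes, the block called 9.6% higher and 8.14% lower there. In the interaction the block called Tox and Ikzf2 higher (edgeR FDR 0.0363 and 0.0365) and Zfp683 lower, where 0.0755% of all genes were called. Tbx21, the gene of T-bet, was at 74.2 to 149 CPM in Het GFP-negative and 64.4 to 146 CPM in Het GFP-positive libraries, which overlapped (log2 difference -0.06, SE 0.32, edgeR FDR 0.937).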

How the data were processed

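Libraries were made from TRI reagent RNA with a stranded, rRNA-depleting total RNA kit, per the labels' protocols. The authors deposited whole-number counts per gene that are not normalized. Their processing notes name bcl2fastq 1.8.4, TopHat2 2.0.13, featureCounts 1.5.0-p1, DESeq2 1.6.1 and mm10, and the strand setting is not given in the sources used here. The matrix and the per-library count files held the same values (0 cells differed). The summed exon length per gene was taken from the deposited count files.

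The authors also deposited tables of 3 comparisons with the mean normalized count (a signal over libraries), the log2 fold change and its SE, the test statistic (a score) and p-values with adjusted p-values, for genes with an adjusted p under 0.05. They were used for description, and their signs were checked against the counts: the table of Het against KO GFP-positive cells had 0% of its signs as Het minus KO.

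Libraries were grouped by the genotype and sort in their labels. Deposited counts were tested two-sided by the quasi-likelihood F-test of edgeR 4.0.16 in R 4.3.3, with TMM scaling, filterByExpr (minimum count 10, minimum total 15; 13238 genes) and 1 mean per group over 12 libraries. Benjamini-Hochberg adjustment ran over all tested genes, with calls at an FDR of 0.05. CPM values are TMM-scaled, and log2 CPM uses a prior count of 2. The p-values without the block measure the spread between libraries of a group and take libraries of 1 recipient as independent. Those with the block measure the spread that is left within recipients. The scripts were tested on simulated counts.

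Libraries with 1 number come from 1 recipient, per the design text, and their deviations from the group means correlated (r 0.547, 0.241 and 0.617 in Het, 0.507, 0.506 and 0.263 in KO). The recipient was a block in an alternative, printed where it changed the call of a member or of a gene list described. Other alternatives were DESeq2 1.42.0, RLE factors, no filter, only 2 groups, limma-voom with quality weights (limma 3.58.1), CPM on raw library sizes, counts without very abundant features, and each library left out. Leaving out both libraries of KO recipient 1, with and without the block, or the 2 libraries with over 50% of counts in abundant features, was added after seeing the data.

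Symbols came from GENCODE M21, and promoter windows from RefSeq on GRCm38.p6. Named genes were the members, Eomes, the defining markers, called genes of the lists and the 3 genes most like each member, and Tbx21, H2-T23 and Tyrobp were added for their roles. The members and lists were chosen with earlier results of these data known. Intervals and the limit from a count of 0 cover counting error only.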

Additional observations from a re-analysis of the deposited data

Results flagged for a closer look

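In TMM-scaled values the difference between GFP-positive and GFP-negative cells ran in opposite directions in the 2 genotypes for 2 genes, in every recipient. Klrg1 was higher in GFP-positive cells of all 3 Het recipients and lower in those of all 3 KO recipients, although KO recipient 1 was only 0.03 below 0 on the log2 scale, and the interaction was 1.32 (SE 1.14, edgeR FDR 1.00). Klrb1f was lower in GFP-positive cells of all 3 Het recipients and higher in those of all 3 KO recipients, with an interaction of -0.753 (SE 0.41, edgeR FDR 1.00). The test of the difference itself did not pass for either gene. With the recipient block the FDR was 0.485 for Klrg1 and 0.690 for Klrb1f. On raw library sizes some of these directions reversed. Klrb1f had 61 of 2116894 counts in GFP-positive and 619 of 13923522 in GFP-negative cells of KO recipient 2. In KO recipient 3 it had 440 of 8267019 and 976 of 18167236. Klrg1 had 105 of 4364155 and 393 of 13901087 in Het recipient 2, and 879 of 8608902 and 1170 of 12067137 in KO recipient 1. With TMM scaling, opposite directions in all 6 recipients were shown by 1.21% of all tested genes.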

How the results depend on the processing

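Percentages in brackets are the shares of all tested genes that the same fit called in either direction. Fits without a percentage have no share given here. Of the 7 receptor genes, 0 were called between the Het sorts (3.45%). The count was 4 with the recipient as a replicate block (22.2%), 1 with no filter on low counts, 1 with only the 2 groups and 2 with limma-voom (16.5%). It was 2 without both libraries of KO recipient 1 and 5 when the block was added to that (29.7%). With single libraries left out it was 0 to 2, the 2 being without KO GFP-positive replicate 1 (7.13%). Between Het and KO GFP-positive cells 1 was called (0.106%). The count was 0 with only the 2 groups, without KO recipient 1 or without the 2 libraries with over 50% of counts in abundant features. It was 0 to 1 with single libraries left out. Between the KO sorts 0 were called (0.128%), 2 with the replicate block (17.7%), 5 with limma-voom (43.9%) and 6 with the block and without KO recipient 1 (29.4%). With single libraries left out the count was 0 to 4, the 4 being without KO GFP-positive replicate 1 (13.3%). In GFP-negative cells limma-voom called 1 (0.612%) in place of 0 (0.0%). In the interaction the block without KO recipient 1 called 1 (0.128%) in place of 0 (0.00755%).

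The sign of some log2 differences changed. For Het minus KO in GFP-positive cells, limma-voom gave 1.34 for Klrg1, 0.32 for Klrd1, 0.95 for Klrk1, 0.53 for Klrc1 and 0.89 for Klre1. Without KO recipient 1 these were 1.73, 0.74, 1.20, 0.77 and 1.40, and with single libraries left out they ran from -0.75 to 1.70, -2.003 to 0.69, -1.72 to 1.21, -1.85 to 0.75 and -3.06 to 1.39. For the KO sorts, leaving out the 2 libraries with over 50% of counts in abundant features gave 0.10 for Klrd1 and 0.23 for Klrk1, and leaving out single libraries gave -2.59 to 0.47 and -2.56 to 0.76. Klre1 there was -0.0047 with DESeq2, -0.79 with the replicate block, -2.91 with limma-voom, -2.83 without KO recipient 1, -3.20 when the block was added to that, and -3.78 to 1.07 with single libraries left out. For GFP-negative cells Klrd1 was 0.19 and Klrk1 0.79 without KO recipient 1, Klrk1 was 0.24 with limma-voom, and single libraries left out gave -0.999 to 0.19 for Klrd1, -0.61 to 0.79 for Klrk1 and -0.039 to 0.80 for Klrc1. For the Het sorts, single libraries left out gave -0.59 to 0.025 for Klrb1f and -0.89 to 0.0087 for Klre1. The cause was not tested. CPM on raw library sizes changed no sign of a ratio of group means. Within some recipients it reversed the direction of Klrg1 and Klrb1f, as given above. KO GFP-positive replicate 2, with 2116894 counts, held 0 to 9 counts for 6 of the members, so levels there are imprecise.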
